A study of Mus musculus with 2 samples.

Results

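The entries examined were the mature microRNAs (miRNAs) of the miR-1, miR-133, miR-206, miR-208 and miR-499 families, often called myomiRs because striated muscle is rich in them. They were found by name, as miR-1a, miR-1b, miR-133a, miR-133b, miR-133c, miR-206, miR-208a, miR-208b or miR-499 with any copy number and arm suffix, and 11 of the 1147 listed entries matched. These are mmu-miR-133a-3p, mmu-miR-133a-5p, mmu-miR-133b-3p, mmu-miR-133b-5p, mmu-miR-1a-3p, mmu-miR-1a-1-5p, mmu-miR-1b-3p, mmu-miR-208a-3p, mmu-miR-208b-3p, mmu-miR-208b-5p and mmu-miR-499-5p. miR-206 and miR-133c had no entry and were not analysed here. Small RNA was sequenced from the muscle layer peeled off the jejunum (tunica muscularis) of C57BL/6 mice aged 15 days. Mice of the Dnmt1-KO group lacked the maintenance DNA methyltransferase gene *Dnmt1* in smooth muscle cells (SMCs), and mice of the Dnmt1-WT group did not. Both groups carried a *Cre*-*eGFP* transgene under the *Myh11* promoter, which is active in SMCs, so other cells of the layer were not meant to lose *Dnmt1*. The strain field names the transgene Tg(Myh11-cre,-EGFP)2Mik and the floxed allele Dnmt1lox/lox for both samples. The study's text, in contrast, labels Dnmt1-WT mice by the transgene and names no floxed allele in that label. Small RNA does not measure *Dnmt1* mRNA, so these libraries give no check of the genotypes. RNA of males and females was used, and whether it was pooled is not given in the sources used here. There was 1 library per genotype, so differences between animals could not be estimated, and every comparison is between 2 libraries.

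miRNAs are short RNAs that guide Argonaute proteins to partly complementary sites in mRNAs, chiefly through the seed, bases 2 to 8 from the 5′ end. Each is cut from a hairpin that can yield a product from its 5′ arm (5p) and another from its 3′ arm (3p), of which usually only one accumulates. miR-1 and miR-133a are made from shared primary transcripts whose transcription in muscle depends on serum response factor (SRF), its cofactor myocardin and MEF2. miR-1 is known for promoting muscle differentiation, while miR-133a is known for restraining proliferation of SMCs. miR-208a, miR-208b and miR-499 lie in introns of myosin heavy chain genes and are known from heart and slow skeletal muscle.

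The mature sequences below, from RefSeq on GRCm38.p6, show how the members are related. Of the 11 members, 7 had a sequence in the part of the RefSeq table that was searched. The search did not cover the whole table, so the lack of a sequence for the other members does not describe RefSeq itself. The seed is in capitals. miR-133b-3p and miR-208b-3p were well above the detection floor, miR-208a-3p and miR-499-5p are shown for their likeness to miR-208b-3p, and the last 3 are the rarer arms of their hairpins.

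miR-133b-3p: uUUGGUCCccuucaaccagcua

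miR-208b-3p: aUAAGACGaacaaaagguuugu

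miR-208a-3p: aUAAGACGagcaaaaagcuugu

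miR-499-5p: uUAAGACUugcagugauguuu

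miR-1a-1-5p: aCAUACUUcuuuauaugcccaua

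miR-133b-5p: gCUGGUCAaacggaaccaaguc

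miR-208b-5p: aAGCUUUUugcucgcguuaugu

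Counted from the 5′ end, miR-208a-3p and miR-208b-3p shared their seed and differed at 3 of 22 positions (G10A, A16G and C18U, miR-208a-3p first). miR-499-5p had the seed of miR-208b-3p except at its last base (G8U, miR-208b-3p first), and the 2 sequences matched at 10 of 21 positions. The 7 sequences thus fell into 6 seeds. Among the 918 of 1080 mature entries with a sequence in the search, which left out chromosome 18, no entry outside the members had any of these seeds. miR-133a-3p differs from miR-133b-3p only in its final base, so a read that lacks this base matches both.

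The members come from 9 annotated hairpin genes on GRCm38 (GENCODE M21), of which *Mir1b* and *Mir1a-2* overlap. *Mir133a-2* (chromosome 2, 180398379 to 180398482, plus strand) stands 9254 bases downstream of *Mir1a-1* (180389048 to 180389124, plus strand). GENCODE places no other gene at either, while RefSeq places both inside the long noncoding RNA gene *Mir1a-1hg*. The second pair is *Mir133a-1* (chromosome 18, 10782909 to 10782976, minus strand) and *Mir1a-2* (10785481 to 10785552, minus strand), 2504 bases apart, both intronic to *Mir133a-1hg* and, on the other strand, within a *Mib1* intron. *Mir1b* (10785446 to 10785567, plus strand) is annotated over *Mir1a-2* on the opposite strand. *Mir133b* (chromosome 1, 20682769 to 20682887, plus strand) overlaps an exon of the noncoding RNA gene *Gm28653* and lies 3686 bases from *Mir206*. *Mir208a* (chromosome 14, 54949060 to 54949142, minus strand) is in an intron of *Myh6*, and *Mir208b* (54975700 to 54975776, minus strand) is in an intron of *Myh7*, 26557 bases away. *Mir499* (chromosome 2, 155622880 to 155622958, plus strand) is in an intron of *Myh7b*. Mature miR-133a-3p and miR-1a-3p come from both pairs, and their entries do not tell the pairs apart.

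Expression is given in the deposited units, reads after the scaling of each library, in which 1 unit is close to 1 read. The deposited totals were 5741906 in Dnmt1-WT and 4754677 in Dnmt1-KO. Ratios are KO/WT on the deposited scale with exact 95% intervals that cover counting error only. Scaling both libraries to equal totals multiplies every ratio by 1.21, and is given where it changes a reading. The jejunal wall was recognisable by its smooth muscle miRNAs, since the 4 products of miR-143 and miR-145a held 36.2% of the WT values and 29.6% of the KO values. In tissue RNA, fewer cells of a type and less RNA per cell cannot be told apart. Library preparation recovers different sequences with unequal efficiency, so an order of levels between miRNAs is that of the libraries.

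miR-133a-3p carried nearly all of the signal of these families. It made up 98.9% of the members' summed values in Dnmt1-WT and 98.6% in Dnmt1-KO. The other 10 members came to 1490 units in WT and 563 in KO, of which miR-208b-3p gave 66.6% and 53.5%. After miR-133a-3p, the order of levels in both libraries was miR-208b-3p, miR-133b-3p, miR-1a-3p and miR-133a-5p. The 6 remaining members did not exceed 6 units in either library. Of the 11 members, 9 were lower in KO and 2 were higher, and each of the latter rested on 1 read. The intervals of 4 of the 9 (miR-1a-1-5p, miR-499-5p, miR-1b-3p and miR-208b-5p) include 1. The 5 members that reached a mean of both libraries of 10 were all lower, beside 260 lower and 268 higher of the 531 entries with such a mean that were above 0 in both libraries.

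**Figure D1:**
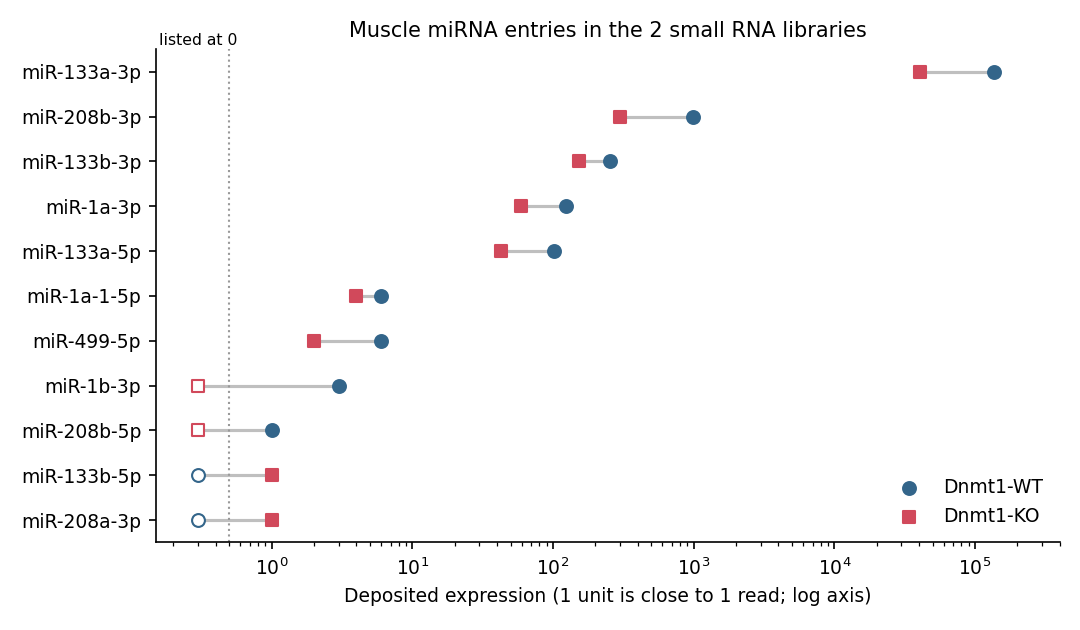
Deposited expression of the 11 muscle miRNA entries (rows) in Dnmt1-WT (circles) and Dnmt1-KO (squares) on a log axis, with 1 library per genotype and values listed at 0 drawn as open symbols left of the dotted line. miR-133a-3p, at 137241 and 40502, lies 138-fold and 134-fold above the next member, miR-208b-3p, at 992.8 and 301.2, and every member above 1 unit in WT is lower in KO.

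miR-133a-3p stood at 137241 in Dnmt1-WT and 40502 in Dnmt1-KO. Between the libraries it fell by 70.5%, a ratio of 0.295 (0.292 to 0.298) and a log2 ratio of -1.76. Its share of the library went from 2.39% (95% Wilson interval 2.38 to 2.40%) to 0.852% (0.844 to 0.860%). It was rank 8 of the mature entries in WT, between miR-27b-3p (141807) and miR-125a-5p (129305), and rank 21 in KO, between miR-486a-5p (46756) and miR-378a-3p (39266). With equal totals the ratio was 0.356 (0.352 to 0.360), still below 0.5. Among the 136 entries with a mean of both libraries of at least 1000, its ratio had rank 2 from the lowest, after miR-143-5p. Among the 313 with a mean of at least 100 that were above 0 in both libraries it had rank 8.

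The other arm of the same hairpins, miR-133a-5p, is the passenger product and was rare. It was listed at 101.3 in WT and 42.9 in KO, a ratio of 0.423 (0.289 to 0.611). The 3p product outnumbered it 1355-fold (1115 to 1664) in WT and 944-fold (701 to 1305) in KO. The KO arm ratio was 0.697 times that of WT (0.483 to 1.02), an interval that includes 1, so a change in arm balance was not detectable at this depth. Both arms were lower in KO.

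miR-133b-3p, whose gene neighbours *Mir206*, was 255.1 in WT and 152.2 in KO. Its ratio of 0.597 (0.487 to 0.735) was below 1 on the deposited scale and with equal totals, where it was 0.721 (0.588 to 0.887). For each 100 units of miR-133a-3p and miR-133b-3p together, miR-133b-3p gave 0.186 in WT and 0.374 in KO. Its implied reads lay 0.37 from a whole number in each library, whereas miR-133a-5p, miR-1a-3p and miR-208b-3p lay within 0.05 of one. Whole reads were thus not recovered for miR-133b-3p, and how reads shared with miR-133a-3p were assigned is not given in the sources used here. The 5p product, miR-133b-5p, was listed at 0 in WT and at 1 in KO. Summed over the 4 miR-133 entries, values went from 137597 to 40699, a ratio of 0.296 (0.293 to 0.299).

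miR-1, the partner of miR-133a in its transcripts, was scarce. miR-1a-3p, the dominant product, was 124.4 in WT and 58.8 in KO, a ratio of 0.473 (0.341 to 0.650) that became 0.571 (0.412 to 0.785) with equal totals. miR-1a-1-5p, from the hairpin on chromosome 2, was 6.0 in WT and 4.0 in KO, a difference within counting error (ratio 0.667, 0.138 to 2.80). miR-1b-3p was 3.0 in WT and 0 in KO, where 0 allows up to 3 reads, so it did not differ detectably. The 3 entries summed to 133.4 and 62.8, a ratio of 0.471 (0.343 to 0.640). Although both are cut from the same transcripts, miR-133a-3p exceeded miR-1a-3p 1103-fold (926 to 1327) in WT and 689-fold (534 to 904) in KO.

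miR-208b-3p, the miRNA of the slow myosin gene *Myh7*, was the next most abundant member. It stood at 992.8 in WT and 301.2 in KO and went from rank 138 to rank 215 of the mature entries. Its ratio was 0.303 (0.266 to 0.345), and 0.366 (0.321 to 0.417) with equal totals. The other arm, miR-208b-5p, was at 1.0 and 0. miR-208a-3p, from the intron of the cardiac myosin gene *Myh6*, was at 0 in WT and 1.0 in KO. miR-499-5p was at 6.0 and 2.0, a ratio of 0.333 whose interval (0.0327 to 1.85) includes 1. The libraries thus held the *Myh7* product at about 1000 units in WT while the products of *Myh6* and *Myh7b* were at or close to the floor of 3 reads, which is 5.24e-05% of the WT reads and 6.29e-05% of the KO reads.

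**Figure D2:**
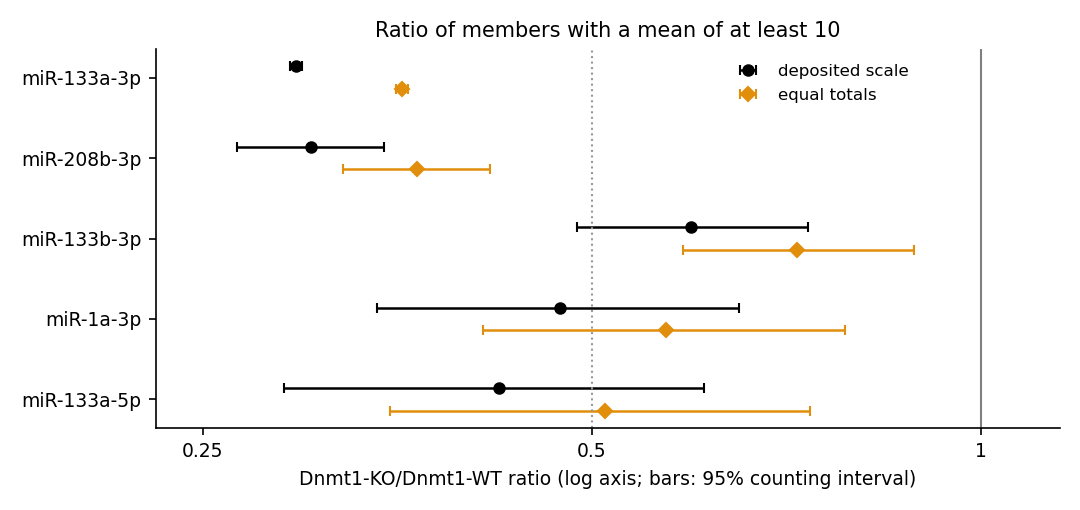
KO/WT ratio (log axis) of the 5 members that reached a mean of 10, with exact 95% counting intervals, on the deposited scale (circles) and with equal library totals (diamonds). All ratios lie below 1, and the whole interval lies below 0.5 (dotted line) on both scales for miR-133a-3p and miR-208b-3p.

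A 2-fold difference was used to count members. On the deposited scale, 7 of 11 members were at least 2-fold lower in KO, against 23.1% of all 1147 entries, and 2 were at least 2-fold higher, against 26.7%. The 2 higher members, miR-133b-5p and miR-208a-3p, and 3 of the lower ones, miR-499-5p, miR-1b-3p and miR-208b-5p, had a mean below 10. Of the 5 members that reached a mean of 10, 4 were at least 2-fold lower, against 9.94% of 543 entries with such a mean. None of the 5 was higher, and the share of entries at least 2-fold higher was not computed at this mean. With equal totals 2 of the 5 remained, miR-133a-3p and miR-208b-3p, against 5.34%. The median log2 ratio of the 5 was -1.24, beside 0.02 over 531 entries with a mean of at least 10 that were above 0 in both libraries. The members were few, 2 of the 5 came from the same hairpins and more of the 11 did, so these shares describe the entries and no more.

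**Figure D3:**
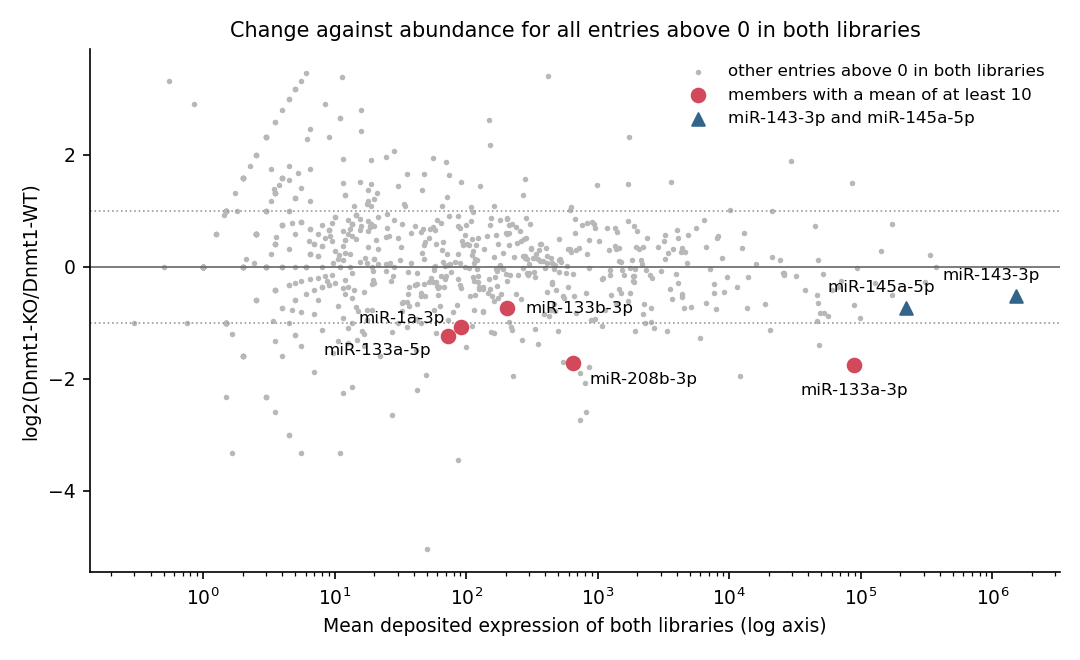
log2(KO/WT) of every entry above 0 in both libraries (grey points) against the mean deposited expression of both libraries (log axis), with members that reached a mean of 10 (red circles), miR-143-3p and miR-145a-5p (blue triangles), and 2-fold lines dotted. Scatter widens at low means, and miR-133a-3p (-1.76) lies below miR-143-3p (-0.53) and miR-145a-5p (-0.74).

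Some pairs of members differed in their ratios beyond counting error, but 2 of the 3 such pairs rest on miR-133b-3p, whose reads were rounded to whole numbers and whose share of reads common to miR-133a-3p is not known. Comparing changes between 2 members does not depend on the scaling, and the 5 members that reached a mean of 10 gave 10 pairs, for which intervals are given at a joint level of 95% (99.5% each). The ratio of miR-133b-3p was 2.02 times that of miR-133a-3p (1.51 to 2.71) and 1.97 times that of miR-208b-3p (1.39 to 2.79). The ratio of miR-1a-3p was 1.60 times that of miR-133a-3p, with a lower limit just above 1 (1.003 to 2.51). The other 7 pairs had intervals that include 1. Among them, miR-208b-3p and miR-133a-3p were at 1.03 (0.850 to 1.24), the narrowest of these intervals. miR-133a-5p and miR-133a-3p were at 1.44 (0.830 to 2.40).

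The other muscle miRNAs gave a further comparison, which was free of scaling only where a member was set against miR-143-3p or miR-145a-5p. The list of 11 entries for miR-143, miR-145a, miR-145b, miR-490, miR-378a and miR-22, known from smooth or striated muscle, had 9 lower and 2 higher in KO, with 3 at least 2-fold lower and a median log2 ratio of -0.53. With equal totals 7 were lower and 4 higher. miR-143-3p, the most abundant miRNA of SMCs, had a ratio of 0.694 (0.692 to 0.695), and miR-145a-5p, cut from the same transcript, 0.598 (0.594 to 0.601). For each 100 units of miR-143-3p there were 7.72 units of miR-133a-3p in WT and 3.28 in KO, so the ratio of miR-133a-3p was 0.425 times that of miR-143-3p (0.421 to 0.430). Against miR-145a-5p it was 0.494 (0.488 to 0.50). miR-208b-3p gave 0.437 (0.384 to 0.497) and 0.508 (0.446 to 0.577). All 4 intervals lay below 1, so both members were lower relative to these 2 products by more than counting error. This did not hold against every entry of the list. The 3 entries at least 2-fold lower, named after their values were seen, were miR-490-5p, miR-143-5p and miR-145a-3p, and the ratios of miR-490-5p (0.238) and miR-143-5p (0.259) were below those of both members. The intervals of miR-490-5p (0.210 to 0.270) and miR-143-5p (0.251 to 0.267) lay apart from that of miR-133a-3p and overlapped that of miR-208b-3p.

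The 5 abundant entries whose change was most like that of miR-133a-3p, by the distance between log2 ratios over 2 libraries at a mean of at least 1000, were miR-143-5p, miR-30c-5p, miR-145a-3p, miR-138-5p and miR-30a-3p. Their ratios were 0.259 (0.251 to 0.267), 0.381 (0.376 to 0.387), 0.413 (0.397 to 0.430), 0.453 (0.423 to 0.485) and 0.453 (0.430 to 0.477). The intervals of all 5 lay apart from that of miR-133a-3p. The nearest, miR-143-5p, was 0.19 lower on the log2 scale, and the other 4 were 0.37 to 0.62 higher.

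Most lists of miRNAs of other cell types were higher in KO, and their part in the lower values of the members was not tested. Summed values on the deposited scale were higher in KO for the leukocyte list (5 of 5 names listed, 6085 and 10150, 8 of 9 entries higher) and the red cell list (3 of 3, 12745 and 47217, 4 of 4 higher). The red cell sum was mostly miR-486a-5p, at 12592 and 46756, which is also known from muscle, while miR-451a, the defining red cell miRNA, was at 141.4 and 420.8. Sums were also higher for the fibroblast list (3 of 3, 24632 and 29361, 5 of 5 higher), the endothelial miR-126a (10080 and 14282, both arms higher) and the epithelial list (8 of 8, 14645 and 18346, 11 of 15 higher). Within the epithelial list, miR-192-5p went from 4619.1 to 8271.5 and miR-215-5p from 7260.5 to 7092.9, with 4 of 15 entries lower. The neural list (4 of 4) was at 5223 and 5021, with 2 of 9 entries higher, and its ratio of 0.961 became 1.16 with equal totals. No entry of these lists was at 0, apart from miR-128-2-5p in KO. The smooth muscle list (miR-143 and miR-145a) (4 entries that the other muscle list holds too) was at 2080072 and 1405953, a ratio of 0.676 (0.674 to 0.677), with 4 of 4 entries lower. The ratio of the miR-133 sum, 0.296, was below that of each list.

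**Figure D4:**
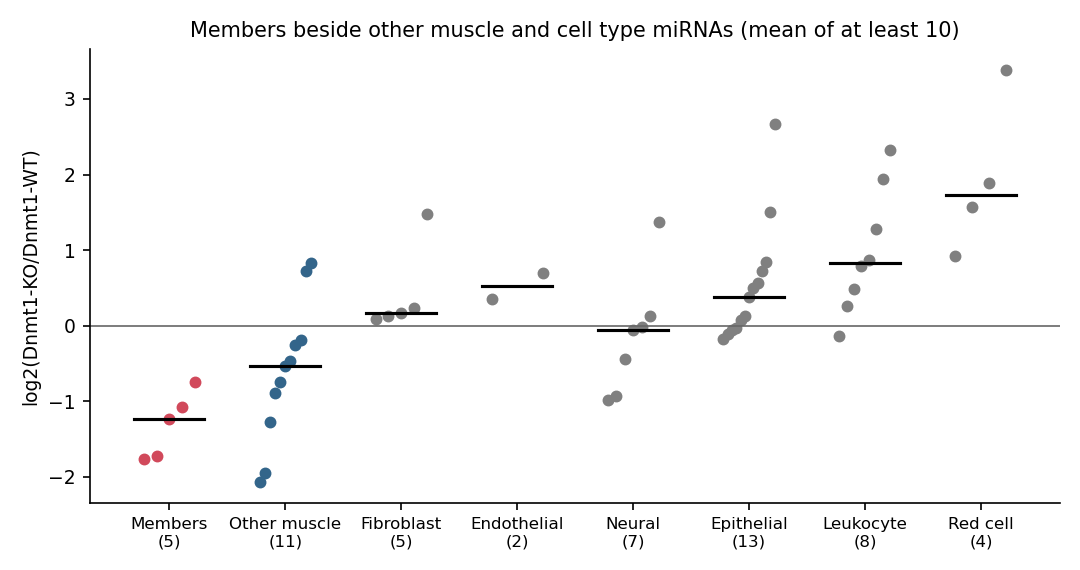
log2(KO/WT) on the deposited scale of single entries (points, ordered within each column) with a mean of at least 10, for the 5 members, 11 other muscle entries and entries of 6 cell type lists, with the number of entries under each name and the median as a bar. The members lie between -1.76 and -0.75, whereas the leukocyte and red cell medians are 0.83 and 1.73.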

How the data were processed

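Small RNA libraries of jejunal tunica muscularis (1 per genotype) were made with an Illumina TruSeq kit. The submitters' processing notes name Bowtie and mm10. The miRNA database release, the scaling and the rule for reads matching more than 1 miRNA are not given in the sources used here, nor whether the RNA of several mice was pooled. The deposited values are the authors' scaled read counts with 1 decimal, and an authors' column of fold changes was not used. Groups follow the genotype field, since a free-text field names the mutant genotype for both samples.

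Implied reads were values divided by the step of each library (1.00287 in WT, 0.99721 in KO), of which 87.8% and 90.3% of values from 20 to 300 were whole multiples within 0.051 units. This gave 5725474 and 4767980 reads. Intervals of ratios were exact binomial (Clopper-Pearson), those of a change between 2 miRNAs conditional or, for miR-143-3p and miR-145a-5p, large-sample odds ratio intervals (scipy 1.17.1), and Wilson intervals were used for shares. Since no molecular identifiers were used, reads may repeat a molecule. No p-value was computed. Simulated data were used to test the coverage of the exact ratio intervals, at counts above those of the members with a mean below 10. For the odds ratio only a point estimate was checked, and the other intervals were not tested.

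Named miRNAs were every member, the 5 entries nearest in log2 ratio to miR-133a-3p at a mean of at least 1000, its neighbours in level, and the most abundant product each of miR-143 and miR-145a. miR-490-5p, miR-22-3p, miR-378a-5p, miR-451a, miR-192-5p, miR-215-5p and miR-128-2-5p, from the muscle and cell type lists, were named after their values were seen. miR-126a is the whole endothelial list. Members and lists were chosen with earlier results of these data known. Alternatives were 3 other scalings, a pseudocount of 1, a minimum mean of 10 and a joint treatment of miR-133a-3p and miR-133b-3p.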

Additional observations from a re-analysis of the deposited data

How the results depend on the processing

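Scaling turned no member's direction, but with equal totals the neural list ratio went from 0.961 to 1.16 and miR-22-3p and miR-378a-5p went from 0.837 and 0.875 to 1.01 and 1.06. The ratio of the summed miR-133 entries, 0.296 on the deposited scale, was 0.357 with equal totals, 0.333 with equal totals counted without miR-143-3p and 0.303 with the median of entries of mean at least 100 set to 0. The number of members at least 2-fold lower, 7, was 5, 6 and 7 with these scalings, and the number higher stayed at 2. At a mean of at least 10 the number lower was 4, and then 2, 3 and 4 with these scalings, and the number higher was 0 in all 4 cases. Of all entries 23.1% were at least 2-fold lower on the deposited scale. At a mean of at least 10 the share was 9.94%, and 5.34% with equal totals. Shares under the remaining settings were not computed. The combinations of minimum mean and scaling were chosen after seeing the data. Of 28 alternative ratios of single members, 24 stayed within the counting interval and 4 left it, those of miR-133a-3p under 3 scalings and of miR-208b-3p with equal totals. A pseudocount of 1 moved no value it was tried on beyond its interval, including the changes of miR-133b-3p and miR-1a-3p against miR-133a-3p and the arm balance of miR-133a. Taking miR-133b-3p as a share of its sum with miR-133a-3p gave 2.02 by construction, since it is a small part of that sum, and does not test how shared reads were assigned. The other 8 pairs and the other arm ratios were not recomputed. Depth limits the 6 members with a mean below 10, for which no difference could be resolved. No paired analysis was possible because there was 1 library per genotype.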
